A study of Mus musculus with 18 samples.

Results

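The genes described here are 49 genes of the extracellular matrix, the protein and proteoglycan scaffold between cells, out of 50584 genes in a count table of mouse choroid plexus. They were chosen by a list of gene symbols, a rule that itself uses no measured value: 5 fibrillar collagens, 7 other collagens, 12 components of the basement membrane, 5 small leucine-rich proteoglycans, 12 glycoproteins and elastic fibre proteins, 3 genes of collagen maturation, and 5 proteases and protease inhibitors. All 49 passed the filter on low counts and were tested.

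The choroid plexus hangs in the ventricles of the brain and makes cerebrospinal fluid. Its epithelium stands on a basement membrane, a thin sheet of type IV collagen, laminins, nidogens and the heparan sulfate proteoglycan perlecan. Beneath lies a core of loose connective tissue with fibroblasts and leaky capillaries, whose collagen fibrils are spaced by small proteoglycans such as decorin and lumican, joined by lysyl oxidases, and cleaved by metalloproteinases under the control of tissue inhibitors.

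The samples were 18 libraries of total RNA from dissected choroid plexus: 6 of MRL/lpr and 3 of MRL/+ mice aged 12 weeks, and 6 and 3 of the same strains aged 16 weeks. MRL/lpr is a lupus-prone strain homozygous for lpr, a mutant allele of the death receptor gene Fas, while the MRL/+ controls share the MRL background with intact Fas. The study concerns lymphoid structures that form in this tissue, and the comparisons ask how the strains differ at each age and how each strain differs between ages. The labels name no animals, and whether each library is 1 animal is not stated, so p-values measure only the spread between these samples, which may be technical.

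Levels are CPM, the usual depth-scaled count, here on TMM-scaled library totals. Total counts ran from 11164284 to 14602253 per library. Several libraries stood apart. MRL/lpr replicate 1 of 12 weeks had the highest summed level of 12 leptomeninges markers (4157 CPM, of which Ptgds, a prostaglandin synthase, gave 3897), and the highest without Ptgds (259.6 CPM). Replicates 1 and 4 of that group held pineal gland transcripts at 71.2 and 64.1 CPM. MRL/+ replicate 1 of 12 weeks held the most cerebellar transcripts, at 393.9 CPM, and MRL/+ replicate 1 of 16 weeks held skeletal muscle transcripts at 628.7 CPM. Counts of calls are also given without these 4 libraries together, a set chosen after the data were seen. The other 14 libraries were not all free of neighbouring tissue. Cerebellar transcripts summed to 210.8, 144.5 and 113.5 CPM in the first 3 MRL/lpr libraries by number at 16 weeks. In MRL/lpr replicate 2 of 12 weeks they summed to 200.6 CPM. Pituitary transcripts summed to between 18.2 and 88.1 CPM over all libraries. Of these, Lhb gave 14.0 to 21.7 CPM in every library, and the sums without Lhb ran from 0.155 to 74.1 CPM. Markers of macrophages summed to 722.3 to 3886 CPM and 422.1 to 3182 CPM in MRL/lpr at 12 and 16 weeks, and to 100.5 to 118.6 CPM and 123.8 to 181.6 CPM in MRL/+. Markers of T and B cells summed to 326.9 to 918.5 CPM and 114 to 2444 CPM in MRL/lpr and to between 1.80 and 5.41 CPM in MRL/+, where Cd3e, Cd3d and Ms4a1 were at 0 at 12 weeks. The 20 markers of choroid plexus epithelium summed to 204600 to 315800 CPM in MRL/lpr and 193000 to 277000 CPM in MRL/+ at 12 weeks, and to 161100 to 291100 CPM and 276900 to 322500 CPM at 16 weeks. Their median log2 fold change was -0.26 and -0.40 at the 2 ages, with 0 and 3 of 20 called by edgeR, all 3 lower. The 12 fibroblast markers were all detected in every group. Their sum did not overlap between the strains, at 3196 to 4987 CPM in MRL/lpr and 5198 to 5701 CPM in MRL/+ at 12 weeks, and at 2541 to 4461 CPM and 4655 to 6983 CPM at 16 weeks. Igf2 gave 96.4% of that sum, which therefore describes mainly Igf2 and not the list. Whether fibroblasts or other cells made the Igf2 transcripts was not measured. Without Igf2 the strains overlapped, at 140.2 to 266.1 CPM in MRL/lpr and 153 to 157.3 CPM in MRL/+ at 12 weeks. At 16 weeks the sums without Igf2 were 124.5 to 203.3 CPM and 130.3 to 185.9 CPM. Of the 11 fibroblast markers tested, edgeR called 0 at 12 weeks and 1 at 16 weeks, lower. The median log2 fold change of these 11 was 0.40 and -0.04 at the 2 ages. The part of the epithelium and fibroblast markers in the values of the 49 genes was not tested. The cell type that made a transcript was not measured, and in whole tissue fewer cells of a type and less RNA per cell cannot be told apart.

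The 49 genes together held a small share of the RNA in every group. Their mean summed level was 5831 ± 461.6 CPM (SD, n = 6) in MRL/lpr at 12 weeks and 5478 ± 583.3 (n = 6) at 16 weeks. MRL/+ had 5710 ± 241.2 (n = 3) and 5866 ± 480.4 (n = 3). The ranges of the 4 groups overlapped, and each mean came to between 0.548% and 0.587% of the scaled counts.

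Per kilobase of exon, the genes of structural fibrils were far from the most abundant. The length used is that of all annotated exons of a gene, such as 12426 bases for Col1a2 and 5838 for Dcn. It is not the length of a transcript, so the order of genes depends partly on the annotation. Col9a3, a chain of the fibril-associated type IX collagen known from cartilage, was highest at 323.8 CPM per kilobase (range over libraries 196.4 to 408). Timp2, an inhibitor of metalloproteinases, followed at 132.2 (99.4 to 199.3), and Col8a1, a short-chain network collagen, at 105.3 (74.1 to 138.3). These 3 ranges touch only between neighbours: Col9a3 barely entered that of Timp2, and those of Timp2 and Col8a1 overlapped widely. Then came Ogn, a small proteoglycan also called mimecan, at 89.9, and Sparc, a collagen-binding glycoprotein, at 82.6. By contrast Col1a2 and Col1a1, the chains of type I collagen, stood at 7.53 and 2.58 CPM per kilobase. Col6a3, a chain of the microfibril-forming type VI collagen, was lowest at 0.246. The markers of cartilage and bone, among which Col2a1 gave 47.0% of the counts, summed to between 2.71 and 7.56 CPM, while Col9a3 alone stood at 756.7 to 1572 CPM.

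**Figure D1:**
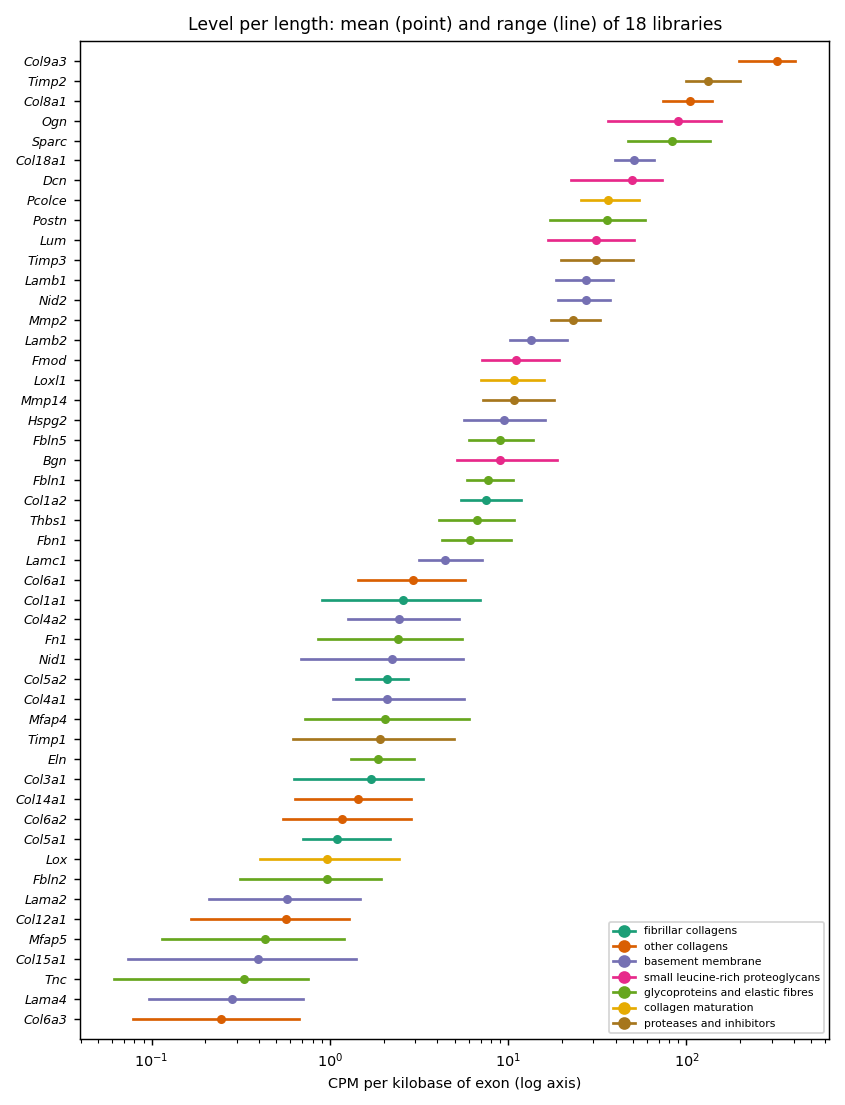
Mean level (point) and range over 18 libraries (line) of each of the 49 matrix genes in CPM per kilobase of exon, on a log axis, coloured by role. Col9a3 leads at 323.8 and Col6a3 is lowest at 0.246.

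Between the strains, few of these genes passed the test. With edgeR's quasi-likelihood test and Benjamini-Hochberg adjustment over all 16598 genes tested, 1 of 49 was called at 12 weeks (Dcn, higher in MRL/lpr), where 6.36% of all genes tested were called. At 16 weeks 2 of 49 were called (Fbln5 higher, Lum lower), where 11.1% of all genes were called. Unadjusted p-values under 0.05 were found for 6 of 49 genes at 12 weeks (12.2%, against 21.4% of all genes) and for 9 of 49 at 16 weeks (18.4%, against 28.8%). The median log2 fold change of the 49 genes was 0.14 at 12 weeks and 0.14 at 16 weeks, against -0.01 and 0.03 for all genes. It lay above 0 for 31 and 32 of the 49.

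The 95% interval lay within a 2-fold change in either direction for 28 of 49 genes at 12 weeks and for 26 at 16 weeks. That bound is wider than the changes of the called genes, 1.80-fold for Dcn, 1.57-fold for Fbln5 and 1.88-fold for Lum. The share of all genes within it was not computed. The levels of the strains did not overlap for 5 of 49 genes at 12 weeks (Col6a1, Col6a2, Col12a1, Dcn and Timp1, each higher in MRL/lpr), against 13.6% of all genes. At 16 weeks they did not overlap for 4 of 49 (Lamb2, Fbln5 and Tnc higher, Postn lower), against 18.7% of all genes. The number of calls changed with the tool. DESeq2 called 2 of the 49 at 12 weeks (Dcn and Col14a1) and 3 at 16 weeks (Lum, Fbln5 and Tnc), against 10% and 15.1% of all genes. The limma voom method with sample weights called 10 and 8, against 21% and 29.2% of all genes. With libraries scaled to the epithelium markers other than Ttr instead, edgeR called 1 at 12 weeks (higher). At 16 weeks it called 21 (21 higher and 0 lower, against 1 and 1), and 45 and 44 of the 49 lay above 0. That scaling moved the median of all genes at 16 weeks from 0.03 to 0.75 and called 44.5% of them. The median of the 49 genes was then 0.88. Most of the level of these markers came from 1 gene, Enpp2. At 16 weeks Enpp2 stood at 31070 to 66990 CPM in MRL/lpr, where the markers without Ttr summed to 39310 to 80550 CPM. In MRL/+ it stood at 73450 to 80230 CPM, of 88360 to 93650 CPM. The 21 calls are therefore relative mainly to Enpp2, which was itself lower in MRL/lpr. Without the 4 libraries that stood apart edgeR called none of the 49 at either age, and of all genes 34 and 503.

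**Figure D2:**
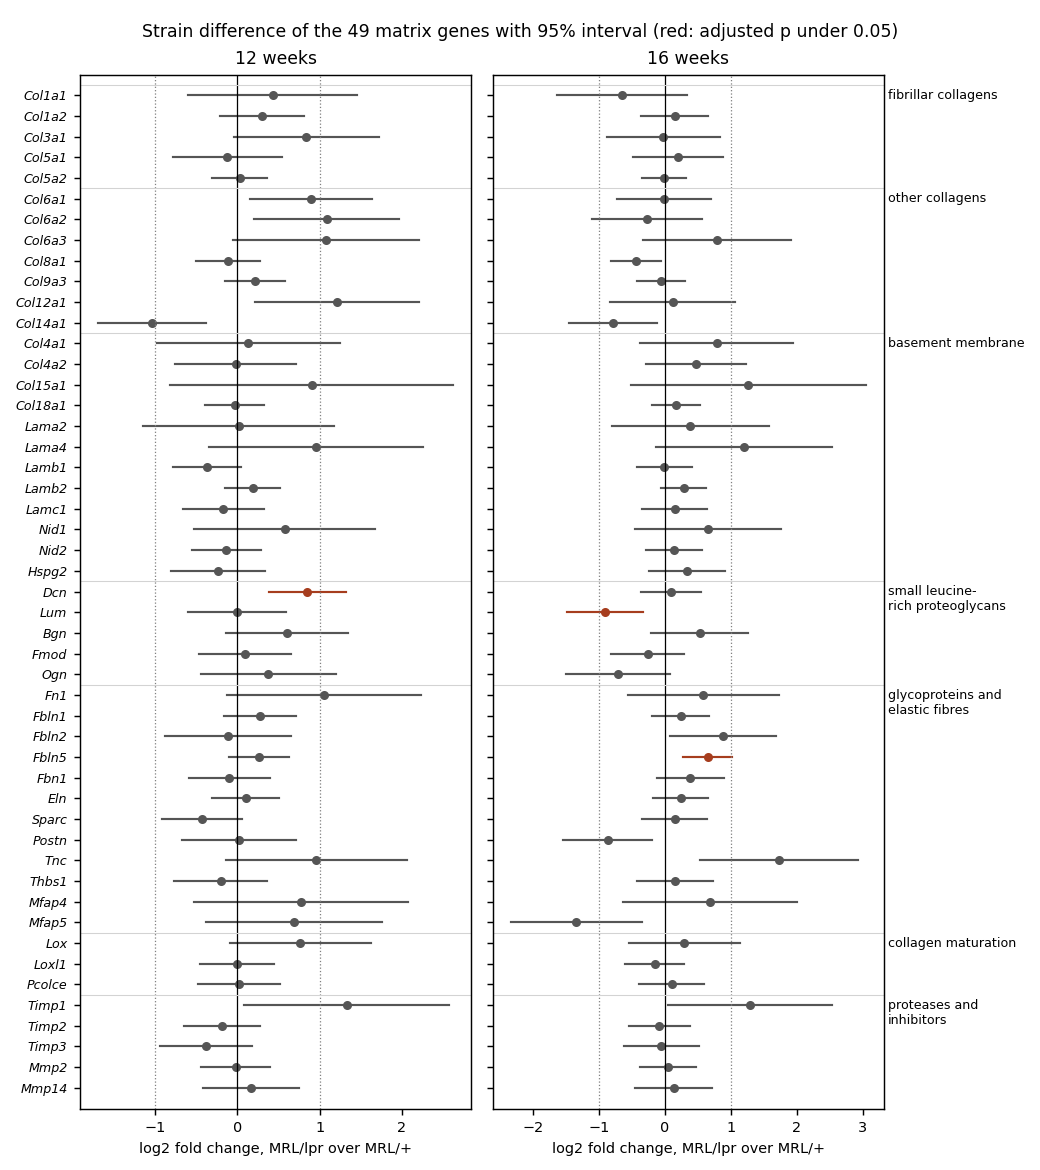
Log2 fold change of MRL/lpr over MRL/+ (point) with its 95% interval (line) for the 49 matrix genes at 12 weeks (left) and 16 weeks (right), ordered by role. Red marks the 3 genes with an adjusted p under 0.05: Dcn at 12 weeks, and Lum and Fbln5 at 16 weeks. Dotted lines mark a 2-fold change.

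The small leucine-rich proteoglycans held 2 of the 3 called genes. At each age 1 of the 5 had an unadjusted p under 0.05. These proteins bind collagen fibrils and limit their width, and decorin also binds growth factors of the TGF-beta family. Dcn (decorin, GRCm38 chromosome 10, 97479609 to 97518143) and Lum (lumican, chromosome 10, 97565128 to 97572703) lie on the same strand of 1 chromosome. At 12 weeks Dcn stood at 291.9, 336.9 and 424.6 CPM (lowest, median, highest) in MRL/lpr and at 131.2, 212.7 and 239.7 CPM in the 3 MRL/+ libraries. Every MRL/lpr library lay above every MRL/+ library. Dcn rose 1.80-fold in MRL/lpr (log2 fold change 0.85, standard error, SE, 0.22, 95% interval 0.38 to 1.31, adjusted p 0.029). The call was lost without MRL/+ replicate 1, the lowest library and the one with the most cerebellar transcripts (log2 fold change 0.65, adjusted p 0.154). It was also lost without MRL/+ replicate 2 or 3, without MRL/lpr replicate 1 or 3, and without the 4 libraries together (0.59, adjusted p 0.353), and the adjusted p ranged from 0.00114 to 0.353 over the alternatives.

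At 16 weeks Dcn stood at 184.5, 285.7 and 346.6 CPM in MRL/lpr and at 321, 253.9 and 225.2 CPM in MRL/+. The strains overlapped throughout, with a log2 fold change of 0.09 (SE 0.21, adjusted p 0.806). The change of the strain difference between ages did not pass the test (interaction -0.76 on the log2 scale, SE 0.30, adjusted p 0.361). The 12 leptomeninges markers had a median log2 fold change between the strains of 1.025 at 12 weeks and 0.01 at 16 weeks. The part of leptomeninges transcripts in Dcn was not tested.

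Lum followed another pattern. At 16 weeks the MRL/lpr libraries held 40.9, 46.8 and 93.8 CPM and the MRL/+ libraries 116.1, 95.03 and 92.85. Of the MRL/lpr libraries, 5 lay at 49.5 CPM or lower and replicate 5 lay among the controls, so the groups overlapped. Lum fell by 0.91 on the log2 scale (SE 0.28, adjusted p 0.0411), a 1.88-fold lower level. Without replicate 5 it fell by 1.14 (adjusted p 0.0046). The call was lost in 12 of 17 alternatives, with an adjusted p of up to 0.233, among them the removal of any other MRL/lpr library of that age and of any MRL/+ library. At 12 weeks Lum stood at 56.3 to 123.8 CPM in MRL/lpr and 52.1 to 101 CPM in MRL/+, with a log2 fold change of -0.01 (SE 0.28, adjusted p 0.992).

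The ratio of Dcn to Lum within a library does not depend on the scaling of libraries. Per kilobase it was 1.44 to 2.36 in MRL/lpr at 12 weeks and 1.55 to 3.01 at 16 weeks. In MRL/+ it was 0.9385 to 1.055 and 1.02 to 1.159. All 12 MRL/lpr libraries lay above all 6 MRL/+ libraries, a description of a pair looked at with its values known and without a test.

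The other members of this class did not pass the test. Bgn (biglycan, close kin of decorin) stood at 35.6, 57.9 and 98.3 CPM in MRL/lpr at 12 weeks against 40.5, 40.2 and 44.6 CPM in MRL/+ (log2 fold change 0.60, SE 0.35, adjusted p 0.338). The MRL/lpr libraries spread on both sides of the narrow control range. Ogn at 16 weeks stood at 119.5, 165.2 and 374.8 CPM in MRL/lpr against 397.4, 315.7 and 265.2 CPM in MRL/+ (-0.71, SE 0.37, adjusted p 0.214, called with voom at an adjusted p of 0.0144). MRL/lpr replicate 5, the library with the highest Lum of its group, was again within the control range. Fmod (fibromodulin) had log2 fold changes of 0.10 and -0.26.

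**Figure D3:**
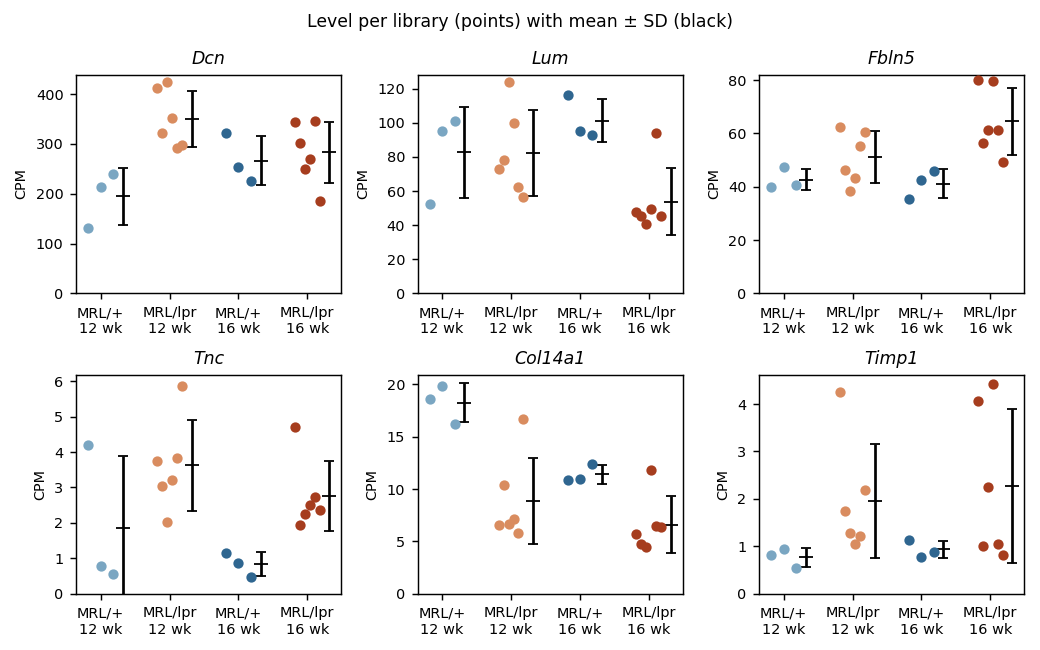
CPM per library (points) with the group mean and SD (black) for Dcn, Lum, Fbln5, Tnc, Col14a1 and Timp1 in MRL/+ (n = 3) and MRL/lpr (n = 6) at 12 and 16 weeks. Dcn at 12 weeks and Fbln5 at 16 weeks show no overlap between the strains, and 1 MRL/+ library holds Tnc at 4.20 CPM.

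Among the glycoproteins and elastic fibre genes, Fbln5 (fibulin-5, which tethers elastin to microfibrils; chromosome 12, 101746565 to 101819055, minus strand) was the gene called. Unadjusted p-values under 0.05 were found for 0 of 12 genes of this class at 12 weeks and for 5 of 12 at 16 weeks (41.7%, against 28.8% of all genes). At 16 weeks Fbln5 stood at 49.2, 61.2 and 79.9 CPM in MRL/lpr and at 35.3, 42.6 and 45.8 CPM in MRL/+. No library of 1 strain reached into the range of the other. Fbln5 rose 1.57-fold (log2 fold change 0.65, SE 0.18, 95% interval 0.27 to 1.02, adjusted p 0.0264). In 7 of 17 alternatives the call was lost, with log2 fold changes between 0.55 and 0.73 and adjusted p of up to 0.181. These included the removal of any MRL/+ library, of MRL/lpr replicate 1 or 4, and of the 4 libraries together. At 12 weeks Fbln5 stood at 38.5, 50.9 and 62.5 CPM against 40.0, 47.3 and 40.6 CPM, with a log2 fold change of 0.26 (SE 0.17, adjusted p 0.41), and the interaction was 0.39 (SE 0.24, adjusted p 0.416).

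The 250 bases before a RefSeq start of Fbln5 and of Timp1, the inhibitor described further on, are shown as examples. Both are genes with strain groups that did not overlap at 1 age and with an entry in the RefSeq promoter table of GRCm38.p6. Col6a1, Col6a2, Tnc and Postn also met these terms and are not shown. Dcn and Lum are named only. Capitals mark CCAAT or its complement and GGGCGG or its complement, the letters of the CCAAT and GC boxes. The Fbln5 stretch is chr12:101819120-101819369 on the minus strand. The table holds another start of Fbln5, with 250 bases before it at chr12:101818485-101818734, in which neither motif was found. The Timp1 stretch is chrX:20869916-20870165 on the plus strand.
Fbln5: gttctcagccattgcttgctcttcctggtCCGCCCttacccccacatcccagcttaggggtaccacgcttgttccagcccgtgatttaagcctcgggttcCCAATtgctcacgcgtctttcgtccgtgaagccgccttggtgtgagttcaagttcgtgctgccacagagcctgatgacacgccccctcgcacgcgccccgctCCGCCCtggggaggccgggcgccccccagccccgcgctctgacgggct
Timp1: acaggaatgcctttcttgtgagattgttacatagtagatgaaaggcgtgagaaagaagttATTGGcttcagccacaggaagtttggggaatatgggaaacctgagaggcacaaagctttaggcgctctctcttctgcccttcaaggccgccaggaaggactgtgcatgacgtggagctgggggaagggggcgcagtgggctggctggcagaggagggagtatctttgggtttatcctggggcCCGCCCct
Of the 49 genes, 31 had entries of 300 bases around a start. Only the first listed start of each gene was searched. On either strand GGGCGG was found in 21 of these 31 (67.7%), against 35.9% of the 27025 gene symbols in the table. Those 27025 were not limited to the genes tested here, so the shares are of unlike sets. CCAAT was found in 38.7% against 37.9%, TATAAA (the TATA box) in 9.68% against 14.2%, and TGANTCA (the AP-1 site) in 3.23% against 7.93%. These motifs do not share letters in the stretches shown, and a match is a description of letters, not of a bound site.

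Tnc (tenascin-C, a glycoprotein of remodelling tissue) had the highest fold change of the 49 genes at 16 weeks. It stood at 1.94, 2.44 and 4.71 CPM in MRL/lpr and at 1.14, 0.877 and 0.479 CPM in MRL/+. Levels were low but the strains did not overlap, with a log2 fold change of 1.73 (SE 0.57, adjusted p 0.0604). It was called with DESeq2 (adjusted p 0.0192), with voom (0.0123), in a fit of only the groups compared (0.0319), with scaling to epithelium markers (0.018) and with a replicate block (0.0409). The 4.71 CPM was MRL/lpr replicate 1, which held 210.8 CPM of cerebellar transcripts, and without it the log2 fold change was 1.53 (adjusted p 0.118). At 16 weeks cerebellar transcripts summed to 13.3 to 210.8 CPM in MRL/lpr and 16.8 to 50.8 CPM in MRL/+, and the 6 markers had a median log2 fold change of 1.54 with 0 called by edgeR. At 12 weeks Tnc in MRL/lpr stood at 2.02, 3.49 and 5.88 CPM, and MRL/+ at 4.20, 0.784 and 0.549 CPM. The MRL/+ library at 4.20 CPM was replicate 1, the library with the most cerebellar transcripts. With it the log2 fold change was 0.96 (SE 0.52, adjusted p 0.303, called with voom at 1.97 and an adjusted p of 0.00261), and without it 2.46 (adjusted p 0.0323), when Tnc was the gene called of the 49. Without the 4 libraries together it was 2.501 (adjusted p 0.0777). Other libraries paired the levels differently. The highest Tnc of all 18 libraries, 5.88 CPM in MRL/lpr replicate 6 of 12 weeks, stood beside 14.0 CPM of cerebellar transcripts. At 16 weeks MRL/lpr replicates 2 and 3, with 144.5 and 113.5 CPM of cerebellar transcripts, held the lowest Tnc of their group, 1.94 and 2.26 CPM. The part of the cerebellar transcripts in the values of Tnc was not tested.

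Other genes of this class lay on both sides of 0 without passing edgeR's test, while voom called Postn and Mfap5 at 16 weeks (adjusted p 0.00434 and 0.0221) and Fn1 at 12 weeks (0.0344). Postn (periostin, a collagen-binding protein of fibroblasts) did not overlap at 16 weeks: its levels were 149.4, 219.4 and 411.2 CPM in MRL/lpr and 492.9, 439.2 and 425.8 CPM in MRL/+ (log2 fold change -0.87, SE 0.32, adjusted p 0.0902). Mfap5 (a microfibril protein) at 16 weeks stood at 0.410, 1.05 and 1.66 CPM in MRL/lpr and at 4.30, 2.14 and 1.60 CPM in MRL/+ (-1.35, SE 0.47, adjusted p 0.0768). The library at 4.30 CPM was MRL/+ replicate 1, which held the skeletal muscle transcripts, and without it the log2 fold change of Mfap5 was -0.83 (adjusted p 0.383). Fn1 (fibronectin) at 12 weeks stood at 22.8, 26.5 and 60.0 CPM against 24.0, 10.7 and 10.4 CPM (1.05, SE 0.56, adjusted p 0.292), with the 60.0 CPM in replicate 1, the library richest in leptomeninges markers. Without that library the log2 fold change of Fn1 was 0.76 (adjusted p 0.515). Sparc at 12 weeks stood at 176.9, 277.9 and 372.5 CPM against 513.5, 298.5 and 316.5 CPM (-0.43, SE 0.23, adjusted p 0.296). The 513.5 CPM was MRL/+ replicate 1, and without it the log2 fold change of Sparc was -0.11 (adjusted p 0.898). Fbln2 at 16 weeks had an unadjusted p under 0.05, with a log2 fold change of 0.88 (adjusted p 0.14). Fbln2 is fibulin-2, a binder of elastic fibres and basement membranes. All other values of this class at either age lay between -0.20 and 0.77 on the log2 scale, among them those of Fbln1 (fibulin-1), Fbn1 (fibrillin-1, the core of microfibrils), Eln (elastin), Thbs1 (thrombospondin-1) and Mfap4, a microfibril-associated protein.

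The fibrillar collagens, which make the tensile fibrils of connective tissue, did not differ between the strains in any call. Unadjusted p-values under 0.05 were found for 0 of 5 at either age, and neither DESeq2 nor voom called one. Col3a1 (type III collagen) came nearest at 12 weeks, with 13.0, 20.2 and 32.7 CPM in MRL/lpr and 15.7, 9.87 and 9.73 CPM in MRL/+ (log2 fold change 0.84, SE 0.42, adjusted p 0.258). The groups overlapped at 13.0 to 15.7 CPM. Col1a2 at 12 weeks stood at 75.9, 97.2 and 140.5 CPM against 84.0, 83.5 and 78.8 CPM (0.30, SE 0.24, adjusted p 0.502). Col1a1 at 16 weeks had 5.90, 13.1 and 27.4 CPM in MRL/lpr and 45.6, 11.01 and 12.4 CPM in MRL/+ (-0.65, SE 0.47, adjusted p 0.355). The 45.6 CPM came from the library with skeletal muscle transcripts, and without it the sign turned, to 0.32 (adjusted p 0.696). Col5a1 and Col5a2, chains of the type V collagen that nucleates fibrils, had log2 fold changes between -0.12 and 0.19 at the 2 ages.

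Of the other collagens, those of type VI and type XII lay higher in MRL/lpr at 12 weeks without passing the test, and Col14a1 lay lower. Unadjusted p-values under 0.05 were found for 4 of 7 genes at 12 weeks (57.1%, against 21.4% of all genes) and for 2 of 7 at 16 weeks (28.6%, against 28.8%). The calls depended on the tool. At 12 weeks voom called Col6a1, Col6a2, Col6a3, Col12a1 and Col14a1 (adjusted p 0.0226, 0.0395, 0.0476, 0.0324 and 0.000448), DESeq2 called Col14a1 (0.0324), and edgeR with a replicate block called Col14a1 (0.0235). At 16 weeks voom called Col14a1 (0.00264) and Col8a1 (0.0222). Col6a1 and Col6a2 are chains of type VI collagen, which forms beaded filaments near cells. Col6a1 stood at 10.8, 12.3 and 25.1 CPM in MRL/lpr and at 10.7, 7.37 and 6.28 CPM in MRL/+ (log2 fold change 0.90, SE 0.35, adjusted p 0.142). Col6a2 stood at 6.97, 11.4 and 23.8 CPM against 6.55, 5.02 and 5.88 CPM (1.08, SE 0.42, adjusted p 0.138). Col12a1, a collagen that lies along the surface of fibrils, stood at 7.23, 10.1 and 19.5 CPM against 5.78, 4.23 and 4.71 CPM (1.21, SE 0.47, adjusted p 0.139). For these 3 genes the strains were separated by little, and MRL/lpr replicate 1, the library richest in leptomeninges markers, was the highest of all 18. Without it their log2 fold changes were 0.70, 0.79 and 0.99 in the same order, with adjusted p of 0.287, 0.285 and 0.276. At 16 weeks the 3 were at -0.02, -0.27 and 0.11. The interaction of Col6a2 was -1.36 (SE 0.57, adjusted p 0.361). The 12 leptomeninges markers had a median log2 fold change between the strains of 1.025 at 12 weeks and 0.01 at 16 weeks. At 12 weeks edgeR called 1 of the 12, higher, and at 16 weeks 1, lower, against 6.36% and 11.1% of all genes. The part of leptomeninges transcripts in these collagens was not tested.

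Col14a1, another collagen of fibril surfaces, stood at 5.84, 6.89 and 16.7 CPM in MRL/lpr at 12 weeks and at 18.6, 19.9 and 16.2 CPM in MRL/+. Of the MRL/lpr libraries, 5 lay at 10.4 CPM or lower and replicate 6 reached the control range. The log2 fold change was -1.04 (SE 0.31, adjusted p 0.0565), and without replicate 6 it was -1.32 (adjusted p 0.00941). At 16 weeks it stood at 4.45, 6.07 and 11.9 CPM against 10.9, 10.9 and 12.4 CPM (-0.79, SE 0.32, adjusted p 0.115), and without replicate 4, the high library, at -1.02 (adjusted p 0.041). Both high libraries were those with the most endothelium transcripts of their group, and with the highest fibroblast markers without Igf2 (266.1 and 203.3 CPM). Col8a1, known from the basement membrane of vessels and of the cornea, stood at 378.7, 448.1 and 647.5 CPM in MRL/lpr at 16 weeks against 635, 567.6 and 706.6 CPM (-0.44, SE 0.18, adjusted p 0.123). The abundant Col9a3 had log2 fold changes of 0.21 (95% interval -0.15 to 0.58) and -0.07 (-0.43 to 0.30). Col6a3 had 1.07 (SE 0.54, adjusted p 0.257) and 0.79 (SE 0.53, adjusted p 0.327).

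The basement membrane genes gave no call in any comparison with edgeR, with 0 of 12 at an unadjusted p under 0.05 at either age. With DESeq2 none was called at either age, and voom called Lamb1 at 12 weeks. The most abundant per kilobase were Col18a1 at 50.5 CPM per kilobase, the collagen whose end fragment is endostatin, and Lamb1 (laminin beta 1) and Nid2 (nidogen 2), both at 27.4. Lamb1 at 12 weeks stood at 183.3, 232.2 and 385.7 CPM in MRL/lpr and at 343.3, 324.5 and 326.5 CPM in MRL/+ (log2 fold change -0.37, SE 0.20, adjusted p 0.293). Here 5 MRL/lpr libraries lay below all controls, and replicate 6 lay above them. Lamb2 (laminin beta 2) at 16 weeks stood at 72.6, 76.2 and 101.1 CPM against 70.4, 62.2 and 67.8 CPM without overlap (0.28, SE 0.16, adjusted p 0.251). Lama4, the laminin alpha chain of vessel walls, was low, at 1.61, 3.88 and 8.27 CPM against 3.69, 1.41 and 1.18 CPM at 12 weeks (0.96, SE 0.62, adjusted p 0.393). At 16 weeks it stood at 1.42, 4.04 and 8.48 CPM against 3.07, 1.17 and 1.197 CPM (1.195, SE 0.63, adjusted p 0.22). Col18a1 was bounded to within 0.40 on the log2 scale at 12 weeks (-0.03, 95% interval -0.40 to 0.33) and had 0.16 (-0.20 to 0.53) at 16 weeks. The 12 genes ranged from -0.37 to 0.96 at 12 weeks and from -0.01 to 1.264 at 16 weeks, when 11 of 12 lay above 0. The top value at 16 weeks was that of Col15a1, a collagen of basement membrane zones, with a 95% interval of -0.52 to 3.05 at a mean of 0.395 CPM per kilobase.

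Variation between libraries was wide in this class. The 12 endothelium markers, all detected in every group, summed to 283.2 CPM in MRL/lpr replicate 4 of 16 weeks, to 269.9 CPM in MRL/lpr replicate 6 of 12 weeks and to 181.3 CPM in MRL/+ replicate 1 of 12 weeks. In the other 15 libraries they summed to between 52.9 and 109.9 CPM. Those 3 libraries were also the 3 highest for 5 of the 12 basement membrane genes (Col4a1, Col4a2, Lama2, Lamb1 and Lamc1), and for Col5a1 and Fbn1 among the other 37. MRL/lpr replicate 6 of 12 weeks was the highest of 18 for 16 of the 49 genes, and MRL/lpr replicate 4 of 16 weeks for 14. Col4a1 (type IV collagen) held 42.2 CPM and 34.2 CPM in these libraries and 28.5 CPM in MRL/+ replicate 1 of 12 weeks, against 7.80 to 24.0 CPM in the others. None of the 12 endothelium markers was called between the strains at either age by edgeR (median log2 fold change 0.10 and 0.80). MRL/lpr replicate 6 of 12 weeks and replicate 4 of 16 weeks also had the highest fibroblast markers without Igf2. These summed to 266.1 and 203.3 CPM there, to 153 CPM in MRL/+ replicate 1 of 12 weeks, and to at most 185.9 CPM elsewhere. Markers of pericytes and smooth muscle summed to 170.9, 155.6 and 134.7 CPM in the same 3 libraries, and to 74.8 to 168.9 CPM elsewhere. The part of endothelium, fibroblast or pericyte transcripts in the levels of the basement membrane genes was not tested.

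**Figure D4:**
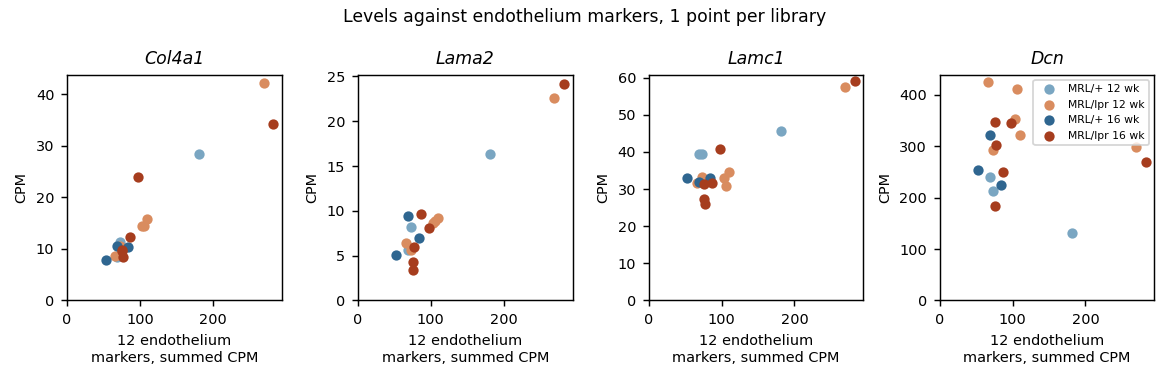
Level of Col4a1, Lama2, Lamc1 and Dcn in CPM (vertical) against the summed CPM of 12 endothelium markers (horizontal), 1 point per library, coloured by strain and age. The 3 libraries at 181.3 to 283.2 CPM of endothelium markers have the highest Col4a1, Lama2 and Lamc1, and not the highest Dcn.

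**Figure D5:**
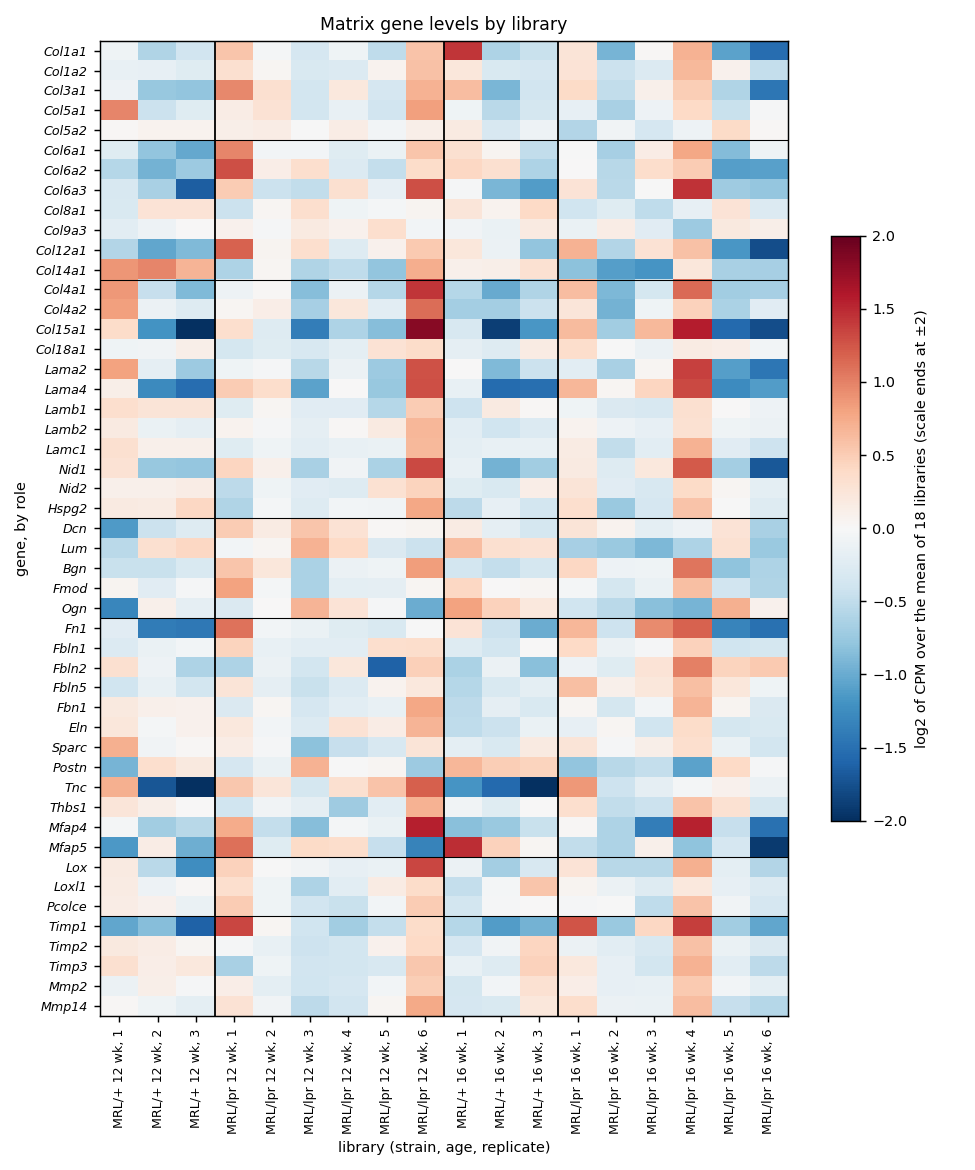
Log2 of CPM over the mean of the 18 libraries for each of the 49 matrix genes (rows, by role) in each library (columns, by strain and age), with the colour scale ending at 2 in either direction. MRL/lpr replicate 6 of 12 weeks and replicate 4 of 16 weeks are high for most of the basement membrane genes.

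Collagen maturation was represented by Lox and Loxl1, lysyl oxidases that start the crosslinking of collagen and elastin, and by Pcolce, which enhances the removal of the procollagen end peptide. None of the 3 passed the test at either age with edgeR or DESeq2 (0 of 3 at an unadjusted p under 0.05), and voom called Lox at 12 weeks. Lox at 12 weeks stood at 4.14, 4.54 and 11.8 CPM in MRL/lpr and at 5.28, 3.21 and 1.96 CPM in MRL/+ (log2 fold change 0.77, SE 0.40, adjusted p 0.288). The 11.8 CPM was replicate 6, and without it the other 5 libraries reached 6.42 CPM. At 16 weeks Lox was at 0.29 (SE 0.40, adjusted p 0.639). Pcolce stood at 102, 132.7 and 198.6 CPM against 153.4, 147.2 and 127.5 CPM at 12 weeks (0.02, 95% interval -0.47 to 0.52). Loxl1 at 16 weeks stood at 29.3, 32.2 and 41.1 CPM against 25.4, 34.6 and 52.1 CPM (-0.16, 95% interval -0.60 to 0.29).

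Among proteases and inhibitors, the inhibitor present at the lowest level lay higher in MRL/lpr and none passed the test. At each age 1 of 5 had an unadjusted p under 0.05. Timp1 (chromosome X, 20870166 to 20874735), an inhibitor of metalloproteinases known to be induced in inflamed tissue, stood at 1.05, 1.52 and 4.25 CPM in MRL/lpr at 12 weeks and at 0.826, 0.940 and 0.549 CPM in MRL/+. The strains did not overlap, yet the difference did not pass the test (log2 fold change 1.33, SE 0.59, adjusted p 0.20). At 16 weeks it stood at 0.819, 1.65 and 4.42 CPM against 1.14, 0.780 and 0.878 CPM (1.28, SE 0.59, adjusted p 0.162). The values above 4 CPM came from replicate 1 at 12 weeks and from replicates 1 and 4 at 16 weeks. Without replicate 1 the log2 fold change at 12 weeks was 0.95 (adjusted p 0.403). The summed levels of the 12 macrophage markers, of which edgeR called 8 at 12 weeks and 10 at 16 weeks as higher, differed between the strains without overlap, and their part in Timp1 was not tested.

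Timp2 had log2 fold changes of -0.18 (95% interval -0.64 to 0.28) and -0.09 (-0.55 to 0.37). Timp3, the inhibitor that stays bound to matrix, stood at 160.8, 198.3 and 364.8 CPM at 12 weeks against 315.8, 277.2 and 290.9 CPM (-0.38, SE 0.27, adjusted p 0.426). As for Lamb1, 5 MRL/lpr libraries lay below the controls and replicate 6 above. Mmp2, a gelatinase, and Mmp14, the membrane-bound protease that activates it, had log2 fold changes between -0.02 and 0.17. For both genes the 95% intervals at both ages lay between -0.46 and 0.75.

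Between the ages no member passed the test. In MRL/lpr, edgeR called 0 of 49 (0.0361% of all genes) and 2 had an unadjusted p under 0.05 (4.08%, against 6.73% of all genes): Lum at -0.61 (SE 0.23, adjusted p 0.609) and Fbln5 at 0.34 (SE 0.14, adjusted p 0.65). DESeq2 and voom called 0 of 49 there. In MRL/+, edgeR called 0 of 49 (0% of all genes), and 1 had an unadjusted p under 0.05 (2.04%, against 13.1% of all genes), which was Mfap5 (1.32, SE 0.57, adjusted p 0.379). DESeq2 called 0 there, and voom called 3 (Col6a1, Col6a2 and Col14a1), against 10.4% of all genes. For the strain by age interaction edgeR called 0 of 49 (0% of all genes), and 4 had an unadjusted p under 0.05 (8.16%, against 13.8% of all genes), all below 0. These were Mfap5 (-2.04, SE 0.70), Dcn, Lum (-0.91, SE 0.40) and Col6a2, each with an adjusted p of 0.361. DESeq2 and voom called 0.

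By class, the 5 small leucine-rich proteoglycans all lay below 0 in the interaction, with a median of -0.76, and the 12 basement membrane genes all lay above 0, with a median of 0.33. The median over all genes was 0.08, and 56% of them lay above 0. The leptomeninges markers had a median of -1.21 in the same contrast and the endothelium markers one of 0.605, with 0 of 12 called in either list by edgeR, and their part in these values was not tested. This contrast uses the libraries of all 4 groups, among them those that stood apart. The genes of a class share these libraries, so their signs are not separate observations. The interaction median of the 49 genes was 0.067. With 1 library left out it ran from -0.157 (without MRL/+ replicate 1 of 12 weeks) to 0.24 (without MRL/lpr replicate 6 of 12 weeks). At 12 weeks the summed level of the proteoglycans was 766.6 ± 131.2 CPM in MRL/lpr and 534.2 ± 156 in MRL/+, and at 16 weeks 629.9 ± 134 and 777 ± 134.8 (SD, n = 6 and n = 3). That of the basement membrane genes was 1067 ± 270.9 and 1171 ± 48.1 CPM at 12 weeks, and 1085 ± 197.1 and 967.1 ± 96.0 at 16 weeks. The order of the strains differed between the ages for both sums, within the spread of the libraries.

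Other genes that build, bind or cut matrix were taken from 6 lists, whose counts are to be read against the 6.36% and 11.1% of all genes called at 12 and 16 weeks and the 21.4% and 28.8% with an unadjusted p under 0.05. Without the 4 libraries that stood apart, 0 of the 7 genes called at 12 weeks were called (adjusted p 0.0616 to 0.516) and 2 of the 14 at 16 weeks, Ctss (adjusted p 0.0192) and Adam19 (0.0434). All 7 and all 14 kept the sign of their difference. Of 18 enzymes and chaperones of collagen synthesis, 0 were called at 12 weeks by edgeR (3 at an unadjusted p under 0.05). At 16 weeks 2 fell: Serpinh1, the collagen chaperone HSP47, from a mean of 209.4 ± 40.1 CPM in MRL/+ to 138 ± 24.1 (adjusted p 0.0174), and P3h4, of the collagen hydroxylase complex, from 90 ± 15.9 to 63.72 ± 10.97 CPM (adjusted p 0.0488). Of 9 genes of propeptide cleavage and crosslinking, Tgm2, a transglutaminase also made by macrophages, rose at both ages. It reached 21.4 ± 13.0 CPM from 3.00 ± 1.05 at 12 weeks (7.06-fold, adjusted p 0.0189) and 31.97 ± 22.8 CPM from 4.49 ± 0.553 at 16 weeks (7.12-fold, adjusted p 0.0123).

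Of 26 matrix receptors, Cd44, the hyaluronan receptor carried by leukocytes, rose 11.1-fold at 12 weeks (adjusted p 0.0324) and 20.5-fold at 16 weeks (adjusted p 0.00916). Itga10, a collagen-binding integrin chain, fell by 0.73 on the log2 scale at 12 weeks (adjusted p 0.0361), and Sdc3, a syndecan, rose 5.18-fold at 16 weeks (adjusted p 0.0329). Of 31 other proteases and inhibitors, 2 rose and 1 fell at 12 weeks, and 5 rose and 1 fell at 16 weeks. Ctss, the cathepsin of antigen-presenting cells, rose to 330.6 ± 223.4 CPM from 21.7 ± 5.43 at 12 weeks (15.3-fold, adjusted p 0.00245) and 14.4-fold at 16 weeks (adjusted p 0.0018). Adamts1, a protease of proteoglycans, fell by 0.75 on the log2 scale at 12 weeks (adjusted p 0.038). At 16 weeks Adam19 rose 12.7-fold (adjusted p 0.00797) and Plau, urokinase, 5.30-fold (adjusted p 0.0265). Mmp25, a leukocyte metalloproteinase, rose at 16 weeks (adjusted p 0.0492) with 2 counts in pooled MRL/+ and a count ratio of 11.4 (95% counting interval 3.00 to 96.6). Ctsk, the collagen-cutting cathepsin K, fell by 0.68 on the log2 scale (adjusted p 0.0407).

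Of 22 genes of TGF-beta signalling, 0 were called at 12 weeks by edgeR (5 at an unadjusted p under 0.05), and Tgfb1 rose 4.53-fold at 16 weeks (adjusted p 0.0404). Of 55 other matrix genes, Has2, a hyaluronan synthase, had 76 counts in MRL/lpr at 12 weeks and 0 in MRL/+, where 0 counts allow up to 0.0727 CPM. It was at least 13.1-fold higher (adjusted p 0.0416), taking 3 counts in the pooled MRL/+ libraries as the floor, a bound for counting error only. At 16 weeks Vcan, the proteoglycan versican, rose 2.39-fold (adjusted p 0.03) and Lamb3, a laminin chain of epithelia, 5.08-fold (adjusted p 0.0432), on 6 counts in pooled MRL/+. The summed levels of macrophage and of T and B cell markers differed between the strains in the same direction as Tgm2, Cd44, Ctss, Adam19, Plau, Mmp25 and Tgfb1, and their part in these genes was not tested.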

How the data were processed

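RNA of 18 choroid plexus libraries was sequenced. The authors deposited raw counts of reads per gene, with the summed exon length of each gene in another column (deposited gene lengths in bases). Per the submitters' processing notes, the tools were STAR 2.5.3a, featureCounts 1.26.0 and DESeq2 1.16.1 on GRCm38. For the annotation release, strand setting and reads with several alignments, the settings are not given in these sources. Exons of 16 of the 49 genes overlap another gene, the longest stretches being 2442 bases of Fbn1 with Gm9913 and 1733 bases of Timp3 with Syn3, so their counts may be shared. No within-group pair of libraries matched within counting error (36 pairs, lowest chi-square per gene 5.61). That check can show only the same library counted again, not separate libraries of the same RNA or animal. Pairs across groups were not compared in this way.

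Counts were filtered by group with filterByExpr, scaled by TMM and fitted with edgeR 4.0.16 (robust quasi-likelihood, 1 mean per group, all 18 libraries) in R 4.3.3, with Benjamini-Hochberg adjustment over 16598 genes and a threshold of 0.05. The fit was tested on simulated data. Alternatives used limma 3.58.1, DESeq2 1.42.0, other scalings and filters, and fewer libraries. The members and lists were chosen with earlier results of these data known. Values are given for each called member, the 2 members of each role with the smallest p per age or the highest level per kilobase, and up to 4 called genes per list; Postn, Mfap5, Fbln2, Col6a1, Col12a1, Col6a3, Mmp25 and Ctsk were added after their values were seen. A gene of the lists is counted there and not reported here by name.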

Additional observations from a re-analysis of the deposited data

Results flagged for a closer look

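In the MRL/lpr groups of 6 libraries, the highest or lowest library of a named gene was compared with its nearest neighbour relative to the range of the group. Of 48 groups examined, 9 had a library beyond 0.625, the 95% critical value of Dixon's test for 6 values. That value is for normally spread data, while CPM were used untransformed, and the genes share the same libraries. The count of 9 can therefore not be set against a chance rate. At 12 weeks replicate 1 stood apart for Col6a2 (23.8 CPM, next 12.5), Fn1 (60.0 CPM, next 28.1) and Timp1 (4.25 CPM, next 2.19), and replicate 6 for Lamb2 (129.5 CPM, next 92.9) and Lox (11.8 CPM, next 6.42). At 16 weeks replicate 4 stood apart for Col14a1 (11.9 CPM, next 6.43) and Pcolce (206.3 CPM, next 138.1), replicate 1 for Tnc (4.71 CPM, next 2.74) and replicate 5 for Lum (93.8 CPM, next 49.5). All 9 were high.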

How the results depend on the processing

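Of 704 values of named genes under alternatives, 630 kept their direction and side of the threshold, 25 lost a call, 22 gained one and 27 turned in sign. The number of the 49 genes called at 12 weeks (1) became 2 with DESeq2, 10 with voom, 2 with a replicate block and 0 without the 4 libraries, and ran from 0 to 2 when 1 library was left out. At 16 weeks (2) it became 21 with scaling to epithelium markers other than Ttr, all higher, and 8 with voom. It became 1 without a low-count filter, 1 with the block, 0 without the 4 libraries, and 0 to 4 with 1 library left out. Between ages in MRL/+ voom called 3. Deviations of same-numbered libraries from their group means correlated at -0.62 to 0.45, with 6 of 21 correlations over 0.1. Libraries of unlike number also deviated together, up to 0.788 for MRL/lpr replicate 6 of 12 weeks and replicate 4 of 16 weeks. The labels do not state whether the numbers pair the samples, and for that reason these correlations cannot decide it. The sign turned for the values that follow. At 12 weeks Lum became 0.027 with RLE factors, 0.027 with DESeq2, 0.34 with epithelium scaling and 0.005 without a filter (-0.24 to 0.16 with 1 library left out), and Pcolce -0.15 with voom and -0.058 with the block (-0.10 to 0.12). At 16 weeks, epithelium scaling gave 0.16 for Col1a1, 0.23 for Col8a1 and 0.56 for Loxl1, and leaving out 1 library gave -0.99 to 0.32 for Col1a1, -0.37 to 0.16 for Loxl1, -0.024 to 0.24 for Dcn and -0.005 to 0.33 for Mmp14. Without the 4 libraries Col1a1 was 0.36 at 16 weeks, and between ages in MRL/+ Lum was -0.037 and Fbln5 0.033 (-0.13 to 0.051 with 1 left out). Of all genes, 1665 and 3490 were called at 12 weeks with DESeq2 and voom, and 7379 and 4849 at 16 weeks with epithelium scaling and voom. Apart from epithelium scaling and the left-out libraries, whose construction changes the reference or the number of samples, the cause was not tested. Groups of 3 libraries limit what can be called.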
